A study of Rattus norvegicus with 10 samples.

Results

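Serotonin is made in neurons of the raphe nuclei of the brainstem, whose axons reach nearly the whole brain. Tph2 catalyses the first step of its synthesis there, the transporter Slc6a4 takes it back up after release, and the transcription factor Fev, also called Pet1, keeps serotonin neurons in their identity in the mouse. The signal is read by receptors that lower cAMP (Htr1a, Htr1b), activate phospholipase C (Htr2a, Htr2c), open an ion channel (Htr3a) or raise cAMP (Htr4, Htr7). Htr2c is also known as a receptor of the choroid plexus, the epithelium that makes cerebrospinal fluid.

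These 10 genes were followed on 10 arrays by taking every probe set that the platform annotation gives to a single gene with one of the 10 symbols. Such a probe set was found for 9 of the 10. Tph2 is not named on the array here and was not analysed. The rule found 16 probe sets among the 31042 tested, 1 each for Slc6a4, Fev, Htr1a, Htr1b and Htr3a, 2 each for Htr2c and Htr4, 3 for Htr7 and 4 for Htr2a. All 16 entered the test, since no filter on low values was used. With Tph2 missing, the synthesis step is covered only by genes outside the members, such as Ddc.

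The samples were right brains, split off at the midline, of male Wistar rats aged 7 weeks. The vapor of DMHF, a dimethyl hydroxyfuranone with a fruity, caramel-like aroma, was inhaled by 5 rats for 5 min, 10 min before they were killed. The 5 control rats inhaled vapor of distilled water instead, and all rats were taken before the dark period. A single comparison follows, DMHF against control, and each array held RNA of 1 rat, labelled as a biological replicate. Litter and cage are not stated. The raphe nuclei lie along the midline, where the brains were split, and each sample holds every other region of its side too, so fewer cells of a type and less RNA per cell cannot be told apart.

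The deposited values lay between 5.25 and 14.22 and were taken as log2. Array medians were all 7.24 and spanned 15.2 millionths of a log2 unit. Differences between rats were small throughout, with a median within-group SD of 2.17 millionths over all probe sets. Levels are therefore given on the deposited log2 scale, and differences in millionths of a log2 unit from the control mean, which give no fold change of RNA. Beside them stands the difference in within-group SD, the pooled SD between rats of a group for that probe set. Neuron markers (8 measured genes at 9.06 to 13.34), astrocyte markers (7 genes at 7.68 to 12.93) and oligodendrocyte markers (6 genes at 10.14 to 13.79) all lay above the array median. The means of 14 of the 16 serotonin probe sets lay below the array median, and those of 2 lay above it.

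None of the 16 probe sets passed the test for a difference between DMHF and control rats. By limma, 0 had an adjusted p under 0.05, where 0% of all probe sets were called, and 0 had an unadjusted p under 0.05, where 5.48% of all probe sets did. In an exact permutation test over rats, two-sided, 0 of 16 had an unadjusted p under 0.05, against 5.14% of all. The groups overlapped for each of the 16, while they did not overlap for 0.867% of all probe sets. In direction, 11 differences were above 0 and 5 below, and 53.2% of all probe sets were above 0. The median difference was 0.201 within-group SD for the 16, beside 0.0528 over all 31042. The adjusted p ran from 0.913 for Htr1a to 1.0. The 95% intervals of 9 of the 16 lay within 2 within-group SD on either side of 0, and those of the other 7 reached further on 1 side.

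**Figure D1:**
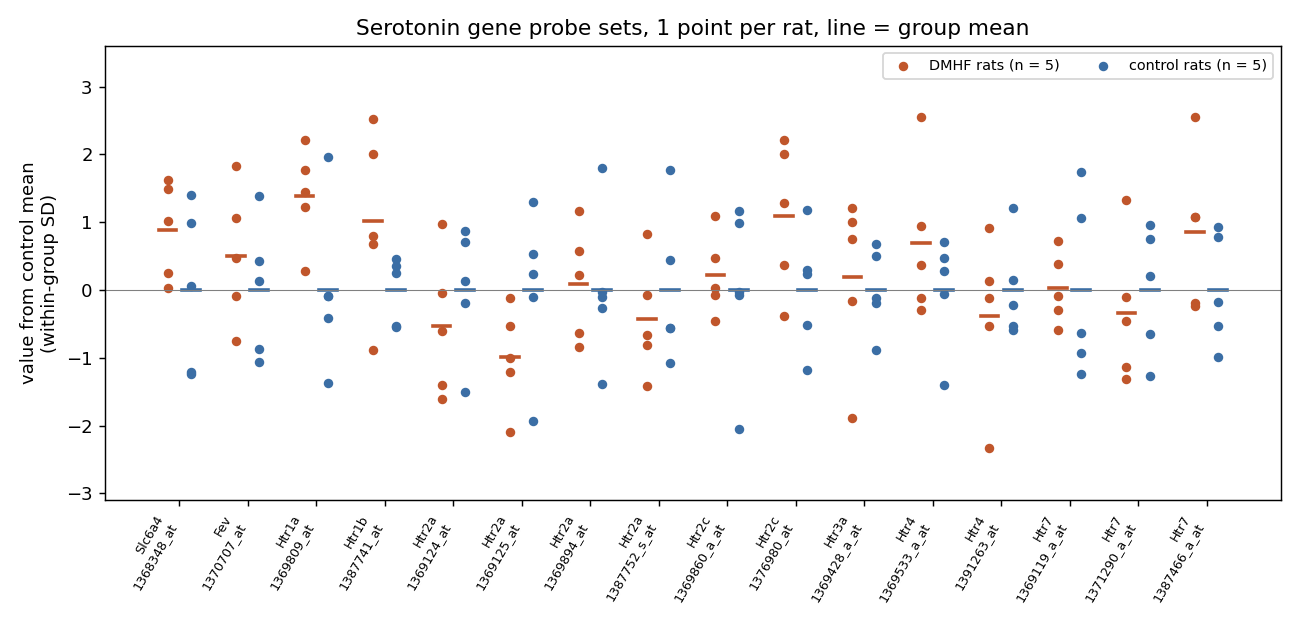
Values of the 16 serotonin probe sets in each rat, in within-group SD from the control mean, with DMHF rats left of control rats and a line at each group mean. The groups overlap for every probe set, and Htr1a stands farthest apart, at 1.38 SD.

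Slc6a4, which carries serotonin back into the neuron, had the widest spread of the members (probe set 1368348_at, mean level 6.75). It stood at 244, 36.6, 3.88, 223 and 152 millionths in DMHF rats 1 to 5, against 210, 8.13, -185, 148 and -181 millionths in control rats 1 to 5. Every DMHF rat lay above the control mean, yet control rats 1, 2 and 4 fell within the DMHF range, and the low values were those of control rats 3 and 5. The difference was 132 millionths (SE 90.2, n = 5 each), or 0.879 within-group SD with a 95% interval of -0.485 to 2.24 (limma adjusted p = 0.969). It was 85.6 millionths without control rat 3 and 86.6 without control rat 5.

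Fev, the transcription factor of serotonin neurons, lay at a mean level of 6.53 (1370707_at). Its values were 4.05, 1.79, -0.325, 6.96 and -2.84 millionths in DMHF rats 1 to 5, against 0.479, 5.28, -3.34, 1.61 and -4.03 millionths in control rats 1 to 5. DMHF rat 4 was the highest and control rat 5 the lowest, and the rest were mixed. The difference was 1.93 millionths (SE 2.30), or 0.507 SD with an interval of -0.864 to 1.88 (limma adjusted p = 1.0). It was 0.670 millionths without DMHF rat 4, 3.12 without DMHF rat 5, 3.25 without control rat 2, 1.09 without control rat 3 and 0.921 without control rat 5.

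Htr1a is the receptor by which raphe neurons restrain their own firing, and it also sits on hippocampal and cortical neurons. Among the members it came closest to the threshold in the fit reported (1369809_at, mean level 7.37). It stood at 2.34, 0.544, 2.78, 4.24 and 3.41 millionths in DMHF rats, against 3.78, -0.790, -0.180, -0.172 and -2.64 millionths in control rats. All 5 DMHF rats lay above the control mean, and control rat 1 lay above all but 1 of them. The difference was 2.66 millionths (SE 1.18), or 1.38 SD with an interval of -0.00274 to 2.77. Its unadjusted p was 0.0504 by limma and 0.0794 by the exact two-sided permutation test, and its limma adjusted p was 0.913. With single rats left out, the difference ran from 2.003 millionths without control rat 5 to 3.61 without control rat 1. The limma unadjusted p was 0.112 without control rat 5 and 0.00304 without control rat 1, where the adjusted p was 0.888. It was also under 0.05, unadjusted, without DMHF rat 2 (0.0290) and with array weights (0.0421). With a common array median the difference was 2.62 millionths, and the limma unadjusted p rose to 0.318.

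Htr1b, the receptor of serotonin terminals and of many other axon endings, had a mean level of 6.95 (1387741_at). Its values were 0.627, 1.85, 2.32, -0.818 and 0.735 millionths in DMHF rats, against -0.497, 0.423, -0.492, 0.233 and 0.332 millionths in control rats. DMHF rats 1, 2, 3 and 5 exceeded every control rat, and DMHF rat 4 lay below every control rat. The spread was 1.22 millionths (SD) among DMHF rats and 0.456 among control rats. The difference was 0.943 millionths (SE 0.594), or 1.02 SD with an interval of -0.439 to 2.48 (limma adjusted p = 0.956), and was 0.599 millionths without DMHF rat 3.

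Htr2a, the excitatory receptor best known from cortical pyramidal neurons, was nominally lower in DMHF on 3 of its 4 probe sets, none past the test. The brightest, 1369125_at at a mean level of 7.17, stood at -22.0, -11.7, -26.4, -45.5 and -2.51 millionths in DMHF rats, against 28.1, 11.4, 4.97, -2.39 and -42.2 millionths in control rats. Every DMHF value lay below 4 of the control values, and control rat 5 was nearly as low as the lowest DMHF rat. The difference was -21.6 millionths (SE 13.1), or -0.993 SD with an interval of -2.36 to 0.372 (limma adjusted p = 0.951). Without control rat 5 it was -32.1 millionths (limma adjusted p = 0.670). It was -14.6 millionths without control rat 1 and -15.6 without DMHF rat 4. The other probe sets differed by -4.94 (1369124_at), -1.62 (1387752_s_at) and 0.0462 millionths (1369894_at), each within 0.538 SD of 0. That of 1369124_at ran from -2.50 without DMHF rat 4 to -8.41 without control rat 5, and also moved by over 1.5 times without DMHF rat 1 (-8.40), DMHF rat 5 (-2.95) or control rat 3 (-2.94). The sign of 1387752_s_at turned without control rat 1, to 0.0528 millionths. That of 1369894_at turned without control rat 4 (-0.122), DMHF rat 2 (-0.0111) or DMHF rat 3 (-0.0826).

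Htr2c, a relative of Htr2a found on neurons and densely on choroid plexus epithelium, had its brighter probe set, 1376980_at, at a mean level of 10.30. This probe set stood at 21.1, 13.4, 3.89, 23.1 and -3.96 millionths in DMHF rats, against 3.06, 12.4, -12.4, 2.41 and -5.42 millionths in control rats. DMHF rats 1, 2 and 4 lay above every control rat, and the others lay among them. The difference was 11.5 millionths (SE 6.31), or 1.10 SD with an interval of -0.267 to 2.46 (limma adjusted p = 0.942). The dimmer probe set 1369860_a_at, at a mean level of 7.06, stood at 11.0, -1.58, 0.764, 25.8 and -10.7 millionths in DMHF rats, against 27.6, 23.4, -1.83, -0.685 and -48.5 millionths in control rats. It differed by 5.06 millionths (SE 14.2), or 0.215 SD (limma adjusted p = 1.0). That difference was -7.06 without control rat 5 and -0.129 without DMHF rat 4.

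The promoter of Fev and that of Htr2c are shown because these 2 genes ranked the rats much as choroid plexus genes did, as given further on. Each run is the 250 bases before the start of the gene, 5′ to 3′ on the gene's strand, from RefSeq on build GRCr8. Capitals mark matches on either strand to AGATAA, which factors of the GATA family bind, CGGAA, a core of the motifs of ETS factors, the family of Fev, and TAATCC, a motif of Otx factors. Fev lies at chr9:83891719-83891968 on the minus strand and Htr2c at chrX:115452940-115453189 on the plus strand.
Fev: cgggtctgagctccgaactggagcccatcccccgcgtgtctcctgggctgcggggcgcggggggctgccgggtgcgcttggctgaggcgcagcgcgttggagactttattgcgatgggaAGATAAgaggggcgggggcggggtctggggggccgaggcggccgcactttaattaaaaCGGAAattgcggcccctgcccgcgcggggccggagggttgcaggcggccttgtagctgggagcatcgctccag
Htr2c: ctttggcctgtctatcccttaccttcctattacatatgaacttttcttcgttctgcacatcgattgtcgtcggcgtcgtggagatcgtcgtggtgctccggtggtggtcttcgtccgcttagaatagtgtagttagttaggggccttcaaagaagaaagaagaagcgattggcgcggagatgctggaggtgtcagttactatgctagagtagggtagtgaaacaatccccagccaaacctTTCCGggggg

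The Fev run holds AGATAA with its first base 131 bases before the start and CGGAA with its first base 73 bases before it. The Htr2c run holds CGGAA on the other strand, read as TTCCG, 10 bases before the start. Neither holds TAATCC. Over 33469 promoters of the same length, 10.3% held AGATAA, 26.1% CGGAA and 6.34% TAATCC on either strand, and the motifs do not overlap each other in these runs. The matches describe letters, not sites in use.

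Htr3a, a subunit of the serotonin-gated ion channel of interneurons, spread more among DMHF rats (SD 14.3 millionths) than among control rats (SD 6.99). Its probe set 1369428_a_at, at a mean level of 6.33, stood at 11.3, 13.7, 8.46, -1.78 and -21.1 millionths in DMHF rats, against -9.90, -2.19, 5.71, -1.26 and 7.65 millionths in control rats. DMHF rats 1, 2 and 3 lay above every control rat and DMHF rat 5 below every control rat. The difference was 2.09 millionths (SE 6.76), or 0.186 SD (limma adjusted p = 1.0). It was negative without control rat 1 (-0.381), DMHF rat 1 (-0.202) or DMHF rat 2 (-0.795).

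Htr4, a receptor that raises cAMP, had probe sets of both signs. Probe set 1369533_a_at, at a mean level of 6.39, stood at -1.58, 4.99, 13.6, 1.96 and -0.601 millionths in DMHF rats, against -7.44, 1.5, -0.307, 2.49 and 3.77 millionths in control rats. DMHF rats 2 and 3 lay above every control rat and control rat 1 below every DMHF rat. The difference was 3.67 millionths (SE 3.21), or 0.689 SD (limma adjusted p = 0.995), and was 1.19 without DMHF rat 3 and 1.81 without control rat 1. Probe set 1391263_at, at 6.46, stood at 0.541, -0.477, 3.65, -2.13 and -9.35 millionths in DMHF rats, against -2.39, -0.900, 0.570, 4.85 and -2.14 millionths in control rats. It differed by -1.55 millionths (SE 2.42), or -0.387 SD (limma adjusted p = 1.0), and by 0.396 without DMHF rat 5, the lowest of the 10.

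Htr7, the other receptor that raises cAMP, with a known role in thalamus and in body clock regulation, was nominally higher on 2 of its 3 probe sets. The brightest, 1369119_a_at at a mean level of 6.92, stood at 2.13, -0.504, -1.62, 4.0 and -3.26 millionths in DMHF rats, against 5.89, 9.66, -3.52, -6.88 and -5.14 millionths in control rats. The control rats lay on both sides of all DMHF rats, and the difference was 0.149 millionths (SE 3.36), or 0.0267 SD (limma adjusted p = 1.0). Its sign turned without control rat 3 (-0.732), 4 (-1.57) or 5 (-1.14), or without DMHF rat 1 (-0.347) or 4 (-0.813). Probe set 1387466_a_at, at 6.81, stood at -0.521, 2.40, 5.72, 2.41 and -0.432 millionths in DMHF rats, against -2.23, -0.403, -1.21, 1.75 and 2.09 millionths in control rats. DMHF rats 2, 3 and 4 lay above every control rat, and the difference was 1.92 millionths (SE 1.37), or 0.852 SD (limma adjusted p = 0.973), and 0.965 without DMHF rat 3. The dimmest, 1371290_a_at at 5.62, differed by -0.249 millionths (SE 0.492), or -0.338 SD, and by -0.0694 to -0.556 with single rats left out (DMHF rat 4 and DMHF rat 3), moving by over 1.5 times also without DMHF rat 5 (-0.102) or control rat 1 (-0.111), 2 (-0.0723) or 4 (-0.484).

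**Figure D2:**
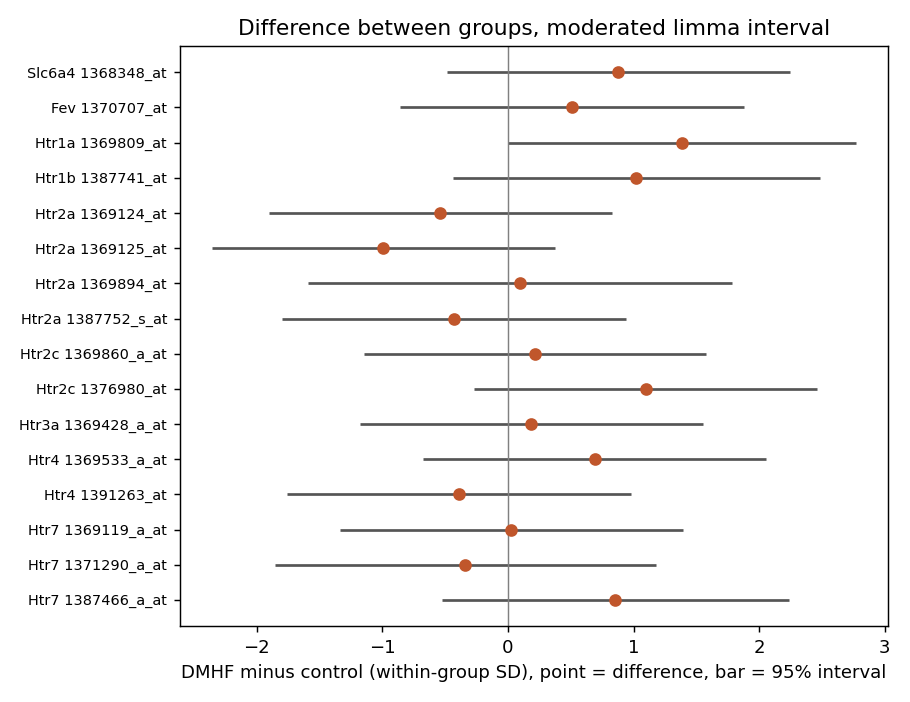
Difference of DMHF minus control for the 16 probe sets in within-group SD (points) with 95% intervals from limma (bars). Each interval includes 0, and that of Htr1a ends at -0.00274.

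Probe sets of the same gene did not follow each other closely from rat to rat. Over the 11 pairs within Htr2a, Htr2c, Htr4 and Htr7, Pearson's r was above 0 for 8, and 0 of 11 had a permutation p under 0.05 after adjustment. The largest was r = 0.607 between 1369125_at and 1387752_s_at of Htr2a (Spearman's rho = 0.467, permutation p = 0.0622 and 0.179, adjusted p = 0.311 and 0.600, n = 10 rats), and it was 0.275 without DMHF rat 4 and control rat 1. The pair of Htr2c gave r = 0.585 (rho = 0.673, permutation p = 0.0703 and 0.0400, adjusted p = 0.311 and 0.440, n = 10), and 0.729 without control rats 1 and 5. For genes with several probe sets the relations that follow use the probe set of highest mean.

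Fev and Htr2c ranked the 10 rats much as choroid plexus genes did. The choroid plexus list had 10 measured genes, among them Ttr, which carries thyroid hormone in cerebrospinal fluid, Folr1, a folate receptor, and Kl, the anti-ageing protein klotho. Its mean in standardised units ran from -0.686 to 1.27 in DMHF rats and from -1.23 to 0.534 in control rats. Of the 10, 9 were nominally higher and 1 lower in DMHF, 0 passed limma's adjusted threshold, and 1 had an unadjusted p under 0.05. Their levels lay between 6.47 and 12.78, against a lowest value of 5.25 in the table.

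Htr2c correlated with that mean at Pearson's r = 0.871 and Spearman's rho = 0.879 (permutation p = 0.00116 and 0.00167, adjusted over 4 planned relations 0.00464 and 0.00668, n = 10 rats). Without control rat 5 and DMHF rat 4, the rats farthest from the median of the markers, r was 0.850. The deviations from the group means gave r = 0.866. Each single rat left out gave r between 0.835 and 0.920, and a common array median 0.888. The dimmer Htr2c probe set had r = 0.842 with the same markers, and 0.915 with the array median, as a description over 10 rats.

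Fev correlated with the choroid plexus markers at r = 0.939 and rho = 0.964 (permutation p = 9e-05 and 7e-05, adjusted over 36 added relations 0.00324 and 0.00252, n = 10 rats). Without control rat 5 and DMHF rat 4 r was 0.894, and the deviations from the group means gave 0.935. Leaving out single rats gave 0.918 to 0.959. With a common array median r was 0.593 (permutation p = 0.0692). That setting shifts arrays by up to 15.2 millionths against each other. The values of Fev ran from -4.03 to 6.96 millionths, with an SD of 3.80 among DMHF rats and 3.81 among control rats. The part of the array median in the fall of r was not tested. Fev itself followed the array median at r = 0.670 and rho = 0.782 (permutation p = 0.0289 and 0.0104, adjusted p = 0.208 and 0.0972, n = 10), and at r = 0.401 without control rats 2 and 5. Of the 36 relations, those of the 9 measured members with choroid plexus, hindbrain and platelet markers and with the array median, only these of Fev and Htr2c with the choroid plexus markers passed at an adjusted p under 0.05.

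Htr7 and Slc6a4 had the next largest r with the choroid plexus markers, and neither passed adjustment. Htr7 gave r = 0.698 and rho = 0.758 (permutation p = 0.0254 and 0.0151, adjusted p = 0.208 and 0.108, n = 10), and r = 0.689 without control rat 5 and DMHF rat 4. Slc6a4 gave r = 0.637 and rho = 0.515 (permutation p = 0.0490 and 0.133, adjusted p = 0.243 and 0.472, n = 10), and r = 0.327 without the same rats. With the array median Htr7 gave r = 0.776 and rho = 0.782 (permutation p = 0.00706 and 0.0108, adjusted p = 0.0847 and 0.0972, n = 10), and r = 0.715 without control rats 2 and 5. Htr1a had r = 0.492 and rho = 0.309 with the choroid plexus markers (permutation p = 0.150 and 0.390, adjusted p = 0.461 and 0.738, n = 10), and r = -0.198 without control rat 5 and DMHF rat 4. Htr1b, Htr2a, Htr3a and Htr4 had r between -0.148 and 0.142 with them.

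Single choroid plexus markers followed both genes to different degrees. All 10 had r above 0 with Fev and with Htr2c, and 5 of 10 exceeded 0.8 with Fev and 4 of 10 with Htr2c. Over all 14216 other genes, 0.823% reached 0.8 with Fev and 1.19% with Htr2c. For Fev these ran from 0.145 for Kcnj13, a potassium channel, to 0.967 for Sostdc1, a secreted BMP antagonist. For Htr2c they ran from 0.0170 for Kcnj13 to 0.935 for Sostdc1. Otx2, a transcription factor of choroid plexus development, had r = 0.663 with Fev and 0.742 with Htr2c.

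With the marker mean as a covariate in the limma fit, the Fev difference was -0.349 millionths in place of 1.93. That of Htr2c was 5.69 in place of 11.5 on the brighter probe set and -7.87 in place of 5.06 on the dimmer one. By limma all 3 missed the threshold, with an adjusted p of 1.0. For Fev the fit was added after its r of 0.939 with the same marker mean was seen. Of the 10 markers, 9 were themselves nominally higher in DMHF, so the fit cannot separate choroid plexus RNA from the group difference. The part of choroid plexus RNA in the Fev and Htr2c differences was not tested.

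**Figure D3:**
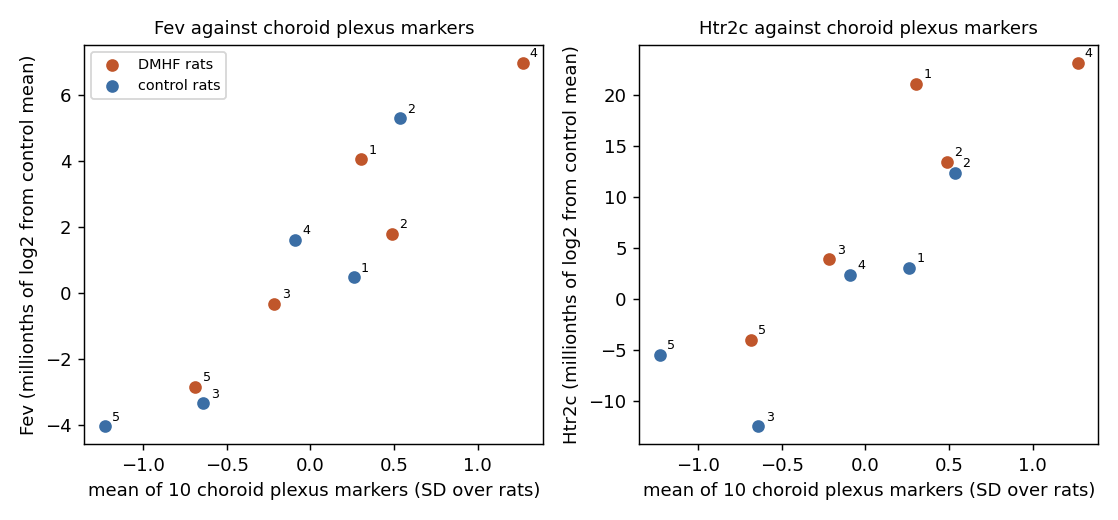
Fev (left) and Htr2c (right) in millionths of a log2 unit from the control mean, against the mean of 10 choroid plexus markers in SD over rats, with 1 point per rat and the replicate number beside it. Both rise with the markers, at r = 0.939 for Fev and 0.871 for Htr2c, and DMHF rat 4 is highest on both axes. With a common array median r is 0.593 for Fev and 0.888 for Htr2c.

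Among 14216 other genes, those most like Fev over the 10 rats were Sostdc1 (r = 0.967), Spint2 (0.962), a protease inhibitor of epithelia, Calml4 (0.956), Cfap126 (0.956), a protein of cilia, and Cetn2 (0.951), a centriole protein. They were picked as the highest of many values, so their size is a description. Ttr ranked 13 in the same order, at r = 0.926, and Slc6a4 ranked 822. The genes most like Slc6a4 were Arl6ip5 (r = 0.943), a regulator of membrane trafficking, Zic1 (0.918), a transcription factor of the dorsal neural tube and cerebellum, Saraf (0.909), a regulator of calcium entry, Pqbp1 (0.909) and Zfp275 (0.908). Fev ranked 955 in that order.

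Slc6a4 had its largest r among serotonin genes with 3 of the raphe and metabolism lists, none past adjustment. Over 37 other measured genes (the remaining members, the other receptors, and the metabolism and raphe lists described further on), 10 had a permutation p of r under 0.05, each with r above 0, and 0 of 37 had an adjusted p of r under 0.05. The smallest r of the 10 was 0.655, which 5.02% of all 14216 other genes also reached with Slc6a4 (713 genes). The choroid plexus markers Kl (0.753), Ttr (0.744), F5 (0.735), Sostdc1 (0.708) and Otx2 (0.682) also lay above it. Folr1 (0.590), Kcnj13 (0.302), Prlr (0.149), Steap1 (0.0824) and Aqp1 (-0.125) lay below it. Among the 37 serotonin genes, the largest r was with Trh, the thyrotropin-releasing hormone precursor (r = 0.860). Next came Slc18a2, the vesicle transporter that loads serotonin and other monoamines (r = 0.827), and Calcr, the calcitonin receptor (r = 0.823). Spearman's rho was 0.782, 0.721 and 0.697 for these, and their permutation p of r was 0.00208, 0.00302 and 0.00429, each 0.0529 after adjustment (n = 10 rats). For rho the adjusted p was 0.0902, 0.136 and 0.136. Without control rats 3 and 5, the lowest for Slc6a4, r was 0.599, 0.459 and 0.377, so these relations rest largely on those 2 rats. The deviations from the group means gave 0.854, 0.870 and 0.793. Slc6a4 also followed the array median at r = 0.617 and rho = 0.673 (permutation p = 0.0540 and 0.0380, adjusted over 36 relations 0.243 and 0.228, n = 10), and at r = 0.757 without control rats 2 and 5, and the part of the array median in these relations was not tested.

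In single rats, Slc18a2 stood at 13.9, -1.32, 0.884, 8.80 and -5.42 millionths in DMHF rats, against 23.5, 12.1, -26.6, 8.22 and -17.2 millionths in control rats (1384933_at). Trh stood at 49.2, 10.6, -31.7, 66.2 and 40.5 millionths in DMHF rats, against 37.8, 57.0, -87.7, 35.3 and -42.4 millionths in control rats. Control rats 3 and 5 were the lowest for both on these probe sets, as they were for Slc6a4. On the dimmer Slc18a2 probe set 1369131_at, control rat 3 was lowest (-438), and DMHF rat 3 (-286) lay below control rat 5 (-187). On 1369132_at of Slc18a2, control rats 3 (-44.1) and 5 (-46.1) were again the lowest. Neither gene passed the test between groups, with Slc18a2 at 0.213 SD and Trh at 0.522 SD (limma adjusted p = 1.0 for each).

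By rank, the relation of Slc6a4 with Nkx2-2, a transcription factor of ventral progenitors and oligodendrocyte precursors, was the single one of 37 past adjustment (rho = 0.891, permutation p = 0.00116, adjusted p = 0.0429, with r = 0.724, permutation p = 0.0194 and adjusted p = 0.103, n = 10). Without control rats 3 and 5 its r was 0.783. With Fev, Slc6a4 had r = 0.617 and rho = 0.624 (permutation p = 0.0602 and 0.0595, adjusted over the 4 planned relations 0.120 and 0.119, n = 10). Without control rats 3 and 5 that r was 0.168, and with a common array median it was -0.0603.

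**Figure D4:**
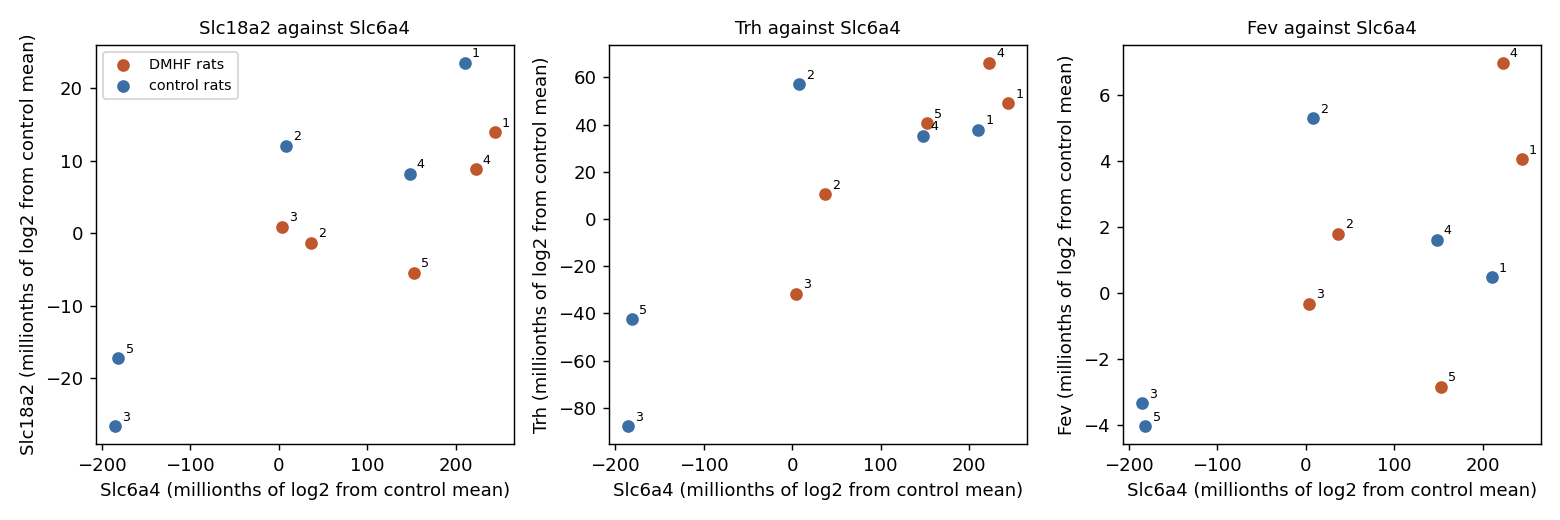
Slc18a2, Trh and Fev against Slc6a4, all in millionths of a log2 unit from the control mean, with 1 point per rat and the replicate number beside it. Control rats 3 and 5 lie at the low end of each panel, and without them r is 0.459, 0.599 and 0.168.

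The hindbrain list, 12 measured genes such as Slc6a5, a glycine transporter, and Hox genes, did not follow the serotonin genes in a way that passed. Its mean ran from -0.328 to 0.501 in DMHF rats and from -0.327 to 0.474 in control rats, with 6 genes nominally higher and 6 lower and 0 past limma's adjusted threshold. It correlated with Slc6a4 at r = 0.218 and rho = 0.273 (permutation p = 0.538 and 0.448, adjusted p = 0.538 and 0.448, n = 10) and without DMHF rat 4 and control rat 2 at r = 0.143. With Fev it gave r = 0.449 and rho = 0.503 (permutation p = 0.192 and 0.144, adjusted p = 0.256 and 0.192, n = 10), and r = -0.293 without the same 2 rats. Platelets also carry the transporter in their membrane. The 4 measured platelet genes were all nominally higher in DMHF, 0 of them past the test, with a mean of -0.626 to 0.916 in DMHF rats and -0.730 to 0.0797 in control rats. Their relation with Slc6a4 was r = -0.157 and rho = -0.467 (permutation p = 0.659 and 0.178, adjusted p = 0.820 and 0.496, n = 10), and r was -0.427 without DMHF rats 3 and 4.

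The remaining serotonin receptors showed no called difference. Of 7 measured, Htr1d, Htr1f, Htr2b, Htr3b, Htr5a, Htr5b and Htr6, 5 were nominally higher and 2 lower, with 0 past the adjusted and 0 past the unadjusted threshold of limma, here and in the next lists at the probe set of highest mean. Their median difference was 0.170 within-group SD, beside 0.0477 over all 14217 genes at the probe set of highest mean. Htr5a differed by 2.77 millionths (SE 3.82), Htr1f by -1.01 (SE 1.47), Htr5b by 23.0 (SE 37.5) and Htr3b by 0.267 (SE 0.923). The SD of Htr5b was 31.6 millionths in DMHF rats and 82.2 in control rats.

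Genes that make, load and break down serotonin, 11 measured, had 7 nominally higher and 4 lower with 0 past either threshold of limma and a median difference of 0.213 SD. Maob, a monoamine oxidase of glia and serotonin neurons, differed by 5.25 millionths (SE 3.03), or 1.04 SD. Gch1, which starts synthesis of the cofactor of tryptophan hydroxylase, differed by 142 millionths (SE 118), or 0.725 SD. Ddc, the decarboxylase that completes both serotonin and dopamine synthesis, stood at 563, 33.0, -168, 455 and 85.0 millionths in DMHF rats, against 337, 230, -454, -136 and 23.1 millionths in control rats (1368064_a_at). DMHF rats 1 and 4 lay above every control rat, as they were also the highest DMHF rats for Slc6a4. Ddc differed by 194 millionths (SE 186), or 0.626 SD, while its dimmer probe set differed by -0.667 millionths (SE 0.579), and Slc22a3, a low-affinity monoamine transporter, by 0.594 millionths (SE 0.636). The limma adjusted p of these 4 genes lay between 0.949 and 1.0.

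Genes that specify or mark raphe neurons, 12 measured, had 9 nominally higher and 3 lower, 0 past either threshold, and a median difference of 0.344 SD. Gata3 and Gata2, GATA factors of developing serotonin neurons, differed by 0.818 millionths (SE 0.537), or 0.998 SD, and by 1.30 (SE 1.10), or 0.722 SD. Foxa2, a floor plate factor, differed by 2.79 millionths (SE 2.20) and Calcr by 174 millionths (SE 151). Of 19 measured partners that carry the receptors' signals, at the probe set of highest mean 8 were nominally higher and 11 lower, 0 passed either threshold, and the median difference was -0.248 SD. Over all 31 probe sets of these genes 0 had an adjusted p under 0.05. At an unadjusted p under 0.05 there was 1, where 5.48% of all probe sets passed. It was the dimmer probe set of the arrestin Arrb1 (1368968_at), named after its value was seen, which stood at -2.51, -4.07, -3.47, -0.777 and -5.11 millionths in DMHF rats, against -2.07, 0.683, -1.57, 0.533 and 2.42 millionths in control rats. It differed by -3.19 millionths (SE 1.07), or -1.83 SD (limma unadjusted p = 0.0155, adjusted p = 0.868, exact permutation p = 0.0317), and the brighter probe set of Arrb1 by 0.167 millionths (SE 0.309), or 0.450 SD. At the probe sets of highest mean the smallest p values belonged to the G protein subunits Gna11 (-2.58 millionths, SE 1.15, or -1.37 SD) and Gnaz (-1.60, SE 0.727, or -1.39 SD), which couple to phospholipase C and to inhibition of cAMP. Their limma adjusted p was 0.926 and 0.931. The potassium channel subunit Kcnj3, opened by Htr1a, differed by 3.78 millionths (SE 2.72) and the arrestin Arrb2 by -1.17 (SE 1.0).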

How the data were processed

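Right brain RNA of 10 rats (5 DMHF, 5 control) was measured on Affymetrix 3′ IVT arrays, and the number of arrays limits the precision. The authors deposited 1 table of processed values, 31099 probe sets by 10 arrays, taken as log2 from their range because the log base is not stated. R 2.7.2 is the tool named in the submitters' processing notes. The handling of background, normalization and probe set summary, and any batch or scan date, are items not given in the sources used here. Scanner files were not used here. The sample titles gave each group and replicate number.

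After removal of 57 control probe sets, 31042 were tested. Of these 20826 name a single gene, 436 name several and 9780 are unnamed here. The 20826 give 14217 genes, and 20758 were found in the GRCr8 gene table with 0 symbols changed. DMHF was compared with control by limma 3.58.1 in R 4.3.3 (lmFit, eBayes, no covariate, two-sided, prior df 0.841), Benjamini-Hochberg adjusted over all probe sets, at a threshold of 0.05. The fit was tested on simulated data. Exact permutation tests used 252 assignments (smallest possible p 0.00794), and relations across rats used 100000 permutations, with adjustment within each family (4, 36, 37 and 11 relations). The last 3 families were added after seeing the data, and 3 planned relations with Tph2 could not be run. Promoters were matched by symbol in the RefSeq table for 5 of the 10 members (Tph2, Fev, Htr1b, Htr2c and Htr7). Marker means are means of values standardised over the 10 arrays.

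The members and lists were chosen with earlier results of these data known. Named genes were every member probe set, up to 4 genes of smallest p per serotonin list, marker genes, and the 5 genes most like Slc6a4 and Fev. Trh, Slc18a2 and Nkx2-2 were named after their values were seen. Alternatives were a replicate block, a common array median, only the 15521 brighter probe sets, array weights, a trended and robust variance, the exact test, the choroid plexus mean as a covariate (for Fev added after seeing the data), the probe set of highest SD, and each array left out.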

Additional observations from a re-analysis of the deposited data

Results flagged for a closer look

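Of the 33 probe sets examined for single rats far from their group (the 16 of the members and those of the other serotonin genes named), in 66 groups of 5, 1 rat stood apart. Gna11 in control rat 5 was at -3.70 millionths of a log2 unit, while the other 4 control rats lay between 0.478 and 1.5, a gap of 0.804 of the group's range. Chance alone would mark about 1 in 20 groups.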

How the results depend on the processing

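The number of member probe sets and of the 48 other serotonin genes past limma's adjusted threshold was 0 under the replicate block, a common array median, array weights, a trended and robust variance, the exact test and each array left out, and 0 among the 2 and 31 kept when only the brighter probe sets are tested. With the replicate block, the lowest adjusted p of a member was 0.659 (Htr2c, 1376980_at), the lowest under any alternative. The replicate numbers were not taken as pairs, since 2 of 5 same-numbered pairs had deviations correlated over 0.1 (range 0.0288 to 0.273), and 3 of 5 DMHF rats correlated best with their own number, a hint from the data only. At an unadjusted p under 0.05, 0 or 1 member probe set was listed, and 0 to 3 other genes. Besides Htr1a, the members listed were Htr2c, Htr2a and Htr1b. For 1376980_at of Htr2c the limma p was 0.0319 with the replicate block and 0.0482 with a common array median. It was 0.0494 without control rat 2 and 0.0292 without DMHF rat 5. For 1369125_at of Htr2a it was 0.00973 without control rat 5, and for Htr1b 0.0201 without DMHF rat 4. Over all probe sets, 0 were called, or 1 without DMHF replicate 2, and the split at an unadjusted p under 0.05 with a common array median was 208 higher and 333 lower, over the brighter probe sets 287 and 413, and in the fit reported 1002 and 698. Of the 16 member probe sets, 9 kept their sign in every setting reported for them. The choroid plexus covariate was reported for only 3 of the 16, and the fit on the brighter probe sets for 2. Signs turned with choroid plexus markers as a covariate for Fev (-0.349) and 1369860_a_at of Htr2c (-7.87). With single arrays left out the ranges were -0.122 to 0.264 for 1369894_at and -2.81 to 0.0528 for 1387752_s_at of Htr2a, -7.06 to 12.0 for 1369860_a_at of Htr2c, -0.795 to 7.90 for Htr3a, -2.85 to 0.396 for 1391263_at of Htr4 and -1.57 to 2.56 millionths for 1369119_a_at of Htr7. A common array median turned r of Slc6a4 with Fev to -0.0603 and that of Slc6a4 with the hindbrain markers to -0.483. With single arrays left out the hindbrain value ran from -0.000884 to 0.383. The cause was not tested. Signal over background is not given in the file, so how many of the dim probe sets were detected is unknown.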
